A study of Rattus norvegicus with 9 samples.

Results

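The 34 genes described here encode enzymes that make cholesterol and fatty acids and proteins that regulate that synthesis. They were named by symbol for their role, with earlier results of these data known, and are 34 of the 36856 gene symbols in the deposited tables. All 34 passed the filter on low counts and were among the 14706 genes tested. The samples were 9 RNA libraries of H9c2(2-1), a wild-type myoblast line from embryonic BD1X rat heart, in 3 groups of 3. Control cells stayed in normal growth medium (DMEM with fetal bovine serum and antibiotics), and the other groups received energized structured water (ESW) or control water (CW) at a dilution of 0.01 for 72 h, with medium and water renewed every 24 h. The labels do not give the composition of either water, the duration or medium renewal for Control, or whether Control received plain diluent. All 3 groups are the same line in culture.

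Cells make cholesterol from acetyl-CoA through mevalonate, isoprenoids, squalene and lanosterol, and make fatty acids from acetyl-CoA through malonyl-CoA and palmitate. Many of these genes are controlled together by SREBP-2 and SREBP-1, membrane-bound transcription factors encoded by Srebf2 and Srebf1. When membrane sterol falls, the escort protein SCAP carries the SREBPs from the endoplasmic reticulum to the Golgi, where proteases free the active part. When sterol is plentiful, INSIG proteins hold SCAP back.

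The libraries held 26748673 to 48574618 estimated reads each. Of 7 markers of myoblasts and muscle, 5 were at or above 1 TPM (reads per unit of transcript length, scaled to the same sum in each library) in every library. The summed level of the 7 was 12600 to 13000 TPM in Control, 14000 to 14600 TPM in ESW and 12400 to 13200 TPM in CW, nearly all of it from Acta2 and Vim. Of the 6 of these markers that could be tested, Acta2 (log2 fold change 0.17, adjusted p = 0.00529) and Vim (0.11, adjusted p = 0.0441) were higher in ESW than in Control. The other 4 did not pass, with 0.48 for Myh3, 0.31 for Myod1, -0.17 for Myog and -0.34 for Des. Of 5 cardiac muscle markers, Gata4 and Tnnt2 were above 1 TPM throughout and 0 passed, and the list summed to 61.9 to 66.7 TPM in Control, 67.0 to 77.5 TPM in ESW and 67.2 to 76.4 TPM in CW. The part of these marker differences in the results on synthesis genes was not tested. No adipocyte, liver or macrophage marker reached 1 TPM in every library, and Adipoq, Fabp4 and Cyp7a1 had 0 reads in all 9. Summed over each list, the ranges were 0.0255 to 0.138 TPM for 5 adipocyte markers, 0 to 0.873 TPM for 4 liver markers and 0.276 to 0.831 TPM for 4 macrophage markers. Fewer cells making a transcript and less transcript per cell cannot be told apart in these bulk RNA samples. Whether the libraries within a group are separate cultures is not stated in the labels, so the p-values cover only the spread between these libraries, which may be technical.

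All 34 genes were expressed in every library, with mean levels over the 9 libraries from 470.2 TPM down to 8.09 TPM. Fdps, the synthase of farnesyl diphosphate, was the highest, and its lowest library (425 TPM) lay above the highest library of Cyp51 (244 TPM), the lanosterol demethylase that came next at 222 TPM. Hmgcs1 followed at 184 TPM, Insig1 at 181 TPM, Msmo1 at 177 TPM, Acat2 at 160.0 TPM, Fads2 at 152 TPM, Sqle at 150.3 TPM and Fads1 at 136 TPM. From Hmgcs1 to Fads1, each gene's range over the libraries overlapped that of the next, so that order is not resolved. Elovl1 stood between gaps at 91.9 TPM. The next 15 genes, from Nsdhl at 71.9 TPM to Dhcr7 at 30.9 TPM, formed an unbroken run of overlapping ranges. Below a gap lay another such run from Hsd17b7 at 25.96 TPM to Elovl6 at 19.3 TPM, and the 4 lowest genes were Srebf1 at 13.6 TPM, Acaca at 10.4 TPM, Tm7sf2 at 9.71 TPM and Stard4.

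**Figure D1:**
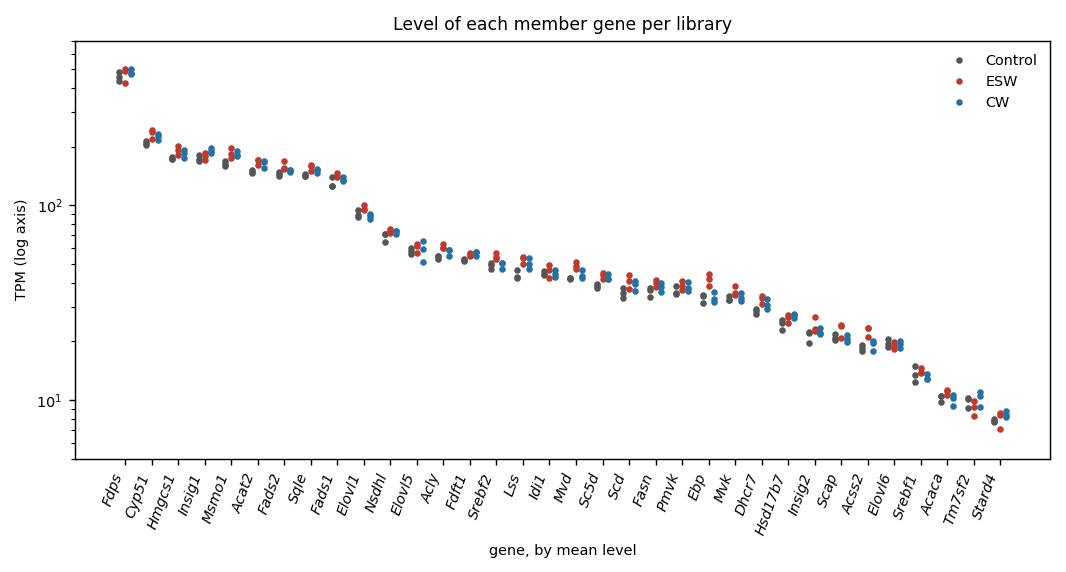
Level of each of the 34 genes in each library, in TPM on a log axis, with genes ordered by mean level and 1 point per library (grey Control, red ESW, blue CW). Fdps stands above the other genes near 470 TPM, and the spread between groups is small beside the span of levels down to 8.09 TPM for Stard4.

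With ESW, 15 of the 34 genes were higher than in Control and 0 were lower (edgeR's quasi-likelihood test, Benjamini-Hochberg adjusted p below 0.05 over all genes tested). Of all genes tested, 4.76% were higher and 3.28% were lower by the same rule, 8.04% in all. The median standard error (SE) of the log2 fold change was 0.0503 for the 34 genes and 0.0729 for all genes tested. A small difference is therefore more easily called among the 34, and the part of this in the count was not tested. As the list was chosen with earlier results known, these comparisons with all genes are a description. The 15 included lanosterol synthase (Lss), the regulator Srebf2 and its escort Scap, the acetyl-CoA enzymes Acss2 and Acly, fatty acid synthase (Fasn) and a desaturase (Scd). The rises were small, between 1.09-fold and 1.24-fold. The median log2 fold change of the 34 genes was 0.131, against -0.00973 over all genes tested, and 32 of the 34 values were above 0. In CPM (a gene's reads relative to the TMM-scaled library total), the ESW values of 21 genes (61.8%) all lay above the Control values, as they did for 13.3% of all genes tested. 0 of the 34 lay wholly below, against 12.4% of all genes.

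**Figure D2:**
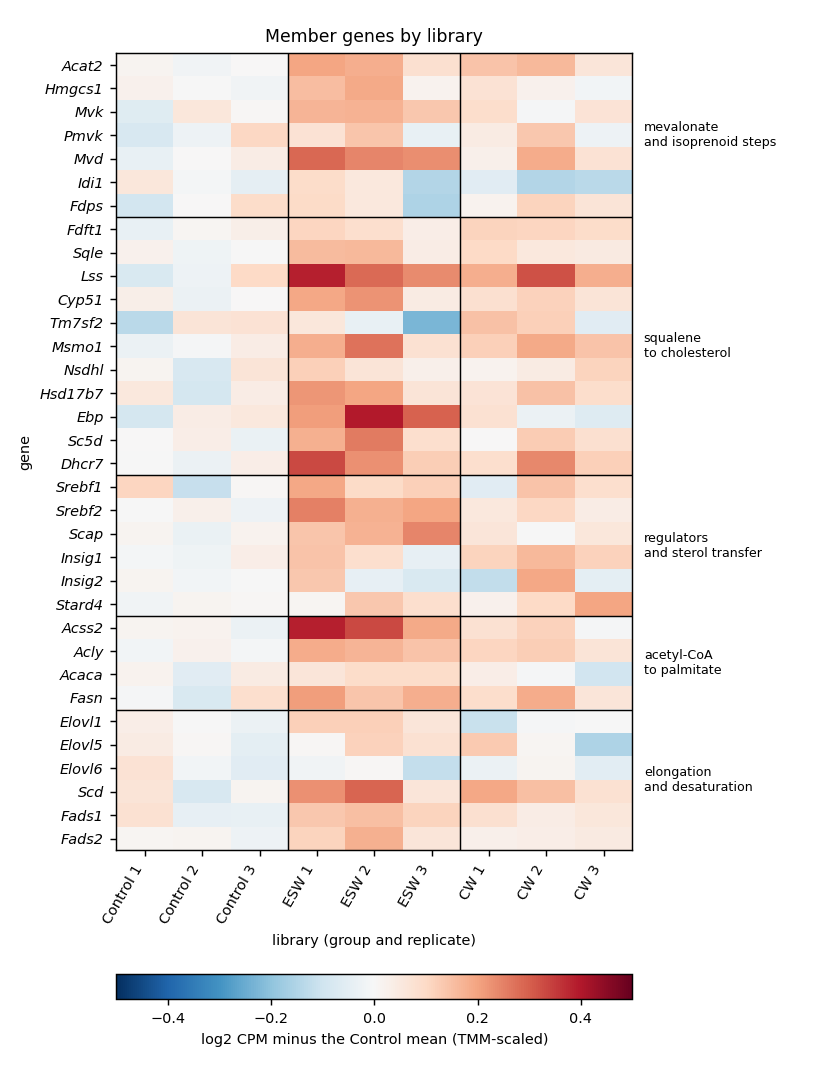
Each row is 1 of the 34 genes, grouped by role, and each column 1 library; the colour is the log2 CPM minus the gene's Control mean, from blue (lower) to red (higher). The ESW columns are mostly red, ESW replicate 3 less so, and the CW columns are paler, with Idi1 and Elovl5 among the exceptions.

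The mevalonate steps rose in 2 of 7 genes, Mvd and Acat2. Mvd encodes mevalonate diphosphate decarboxylase, which makes isopentenyl diphosphate. Its level was 40.1, 41.2 and 42.3 CPM in the Control libraries, 50.3, 48.9 and 48.4 CPM in the ESW libraries and 41.96, 46.9 and 43.3 CPM in the CW libraries. Every ESW library was above every Control and CW library, while CW replicate 1 lay inside the Control range. The log2 fold change in ESW was 0.25 (SE 0.050, adjusted p = 0.00422), a 1.19-fold rise. Acat2, the cytosolic thiolase that joins acetyl-CoA units at the start of the pathway, was at 167, 164 and 166 CPM in the Control libraries, 189.8, 188 and 175 CPM in the ESW libraries and 182, 185 and 173 CPM in the CW libraries. All 6 water libraries were above the 3 Control libraries, and the ESW and CW values overlapped. Its log2 fold change in ESW was 0.15 (SE 0.041, adjusted p = 0.0245).

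The other 5 mevalonate genes did not pass. Hmgcs1, which makes the HMG-CoA that commits carbon to the pathway, was at 296, 291 and 288 CPM in Control and 324, 332 and 295 CPM in ESW, so that ESW replicate 3 lay among the Control values (log2 fold change 0.12, adjusted p = 0.0888). Mevalonate kinase (Mvk) had a log2 fold change of 0.16 (adjusted p = 0.0644) with no overlap between ESW and Control, and phosphomevalonate kinase (Pmvk) had 0.057 (adjusted p = 0.695). Idi1, the isomerase of isopentenyl diphosphate, and Fdps had log2 fold changes of 0.0032 and 0.0015, with 95% intervals of -0.11 to 0.12 and -0.11 to 0.12. Fdps was at 293, 313 and 333 CPM in the Control libraries, 335, 325 and 281 CPM in the ESW libraries and 316, 338 and 327 CPM in the CW libraries. The Control and CW ranges overlapped, and the ESW libraries held both a value above all Controls and the lowest value of all. Idi1 overlaps the gene Wdr37 in the annotation, whose reads came to 14.3% of those of Idi1, and the sources used here do not say whether strand was used in counting.

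From squalene to cholesterol, 6 of 11 genes rose in ESW. Lss, the cyclase that turns squalene epoxide into lanosterol, was at 82.2, 85.3 and 92.9 CPM in the Control libraries, 113, 105 and 102 CPM in the ESW libraries and 98.3, 108 and 98.4 CPM in the CW libraries. All 6 water libraries were above all Control libraries, and the ESW and CW ranges overlapped. The ESW log2 fold change was 0.30 (SE 0.053, adjusted p = 0.00197). Ebp, the isomerase that moves the ring double bond of the sterol, was at 13.4, 14.6 and 14.7 CPM in the Control libraries, 16.4, 18.7 and 17.4 CPM in the ESW libraries and 15.01, 13.9 and 13.6 CPM in the CW libraries. The 3 ESW libraries were above all others, and the CW and Control values overlapped. Its ESW log2 fold change was also 0.30, with a wider SE of 0.073 (adjusted p = 0.0162). Dhcr7, which reduces 7-dehydrocholesterol in a last step, was at 38.7, 38.04 and 39.7 CPM in the Control libraries, 48.8, 45.5 and 42.2 CPM in the ESW libraries and 41.2, 45.9 and 42.2 CPM in the CW libraries, with all 6 water libraries above Control (ESW log2 fold change 0.23, adjusted p = 0.0171).

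The other 3 genes that rose in this stretch encode oxidases of the sterol ring and its methyl groups. Msmo1, the methylsterol monooxygenase, was at 123, 125 and 129 CPM in the Control libraries, 143, 152 and 133 CPM in the ESW libraries and 137, 144 and 139 CPM in the CW libraries (ESW log2 fold change 0.18, adjusted p = 0.0205). Cyp51 was at 357, 342 and 349 CPM in the Control libraries, 399, 408 and 359 CPM in the ESW libraries and 369, 378 and 365 CPM in the CW libraries (ESW log2 fold change 0.15, adjusted p = 0.0329). For both, all 6 water libraries were above all Controls, and ESW replicate 3 was the lowest water library. Sc5d, the lathosterol oxidase, was at 51.99, 53.1 and 50.8 CPM in the Control libraries, 58.9, 62.3 and 55.04 CPM in the ESW libraries and 52.1, 56.7 and 54.95 CPM in the CW libraries (ESW log2 fold change 0.18, adjusted p = 0.0355). Its ESW values were above all Controls, but CW replicate 1 lay inside the Control range. Sqle, the epoxidase before Lss, had a log2 fold change of 0.12 in ESW (adjusted p = 0.0761), Hsd17b7, a sterol ketone reductase, 0.16 (adjusted p = 0.0862), and Fdft1, the squalene synthase, 0.076 (adjusted p = 0.247). None of these passed, although their ESW and Control libraries did not overlap. Nsdhl, a sterol dehydrogenase, had 0.068 (adjusted p = 0.42). Tm7sf2, a sterol reductase, had a log2 fold change of -0.068 with a 95% interval of -0.31 to 0.17, the widest of the 34.

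Of the 6 regulators and sterol carriers, Srebf2 and Scap rose in ESW. Srebf2 was at 138, 140.5 and 136 CPM in the Control libraries, 164, 156 and 158 CPM in the ESW libraries and 143, 148 and 142 CPM in the CW libraries. The 3 groups did not overlap, with Control lowest, CW between and ESW highest. The ESW log2 fold change was 0.21 (SE 0.038, adjusted p = 0.00237). Scap was at 53.6, 51.9 and 53.8 CPM in the Control libraries, 58.5, 59.9 and 62.9 CPM in the ESW libraries and 55.4, 52.98 and 55.2 CPM in the CW libraries. Its ESW libraries were above all others, and CW overlapped Control (ESW log2 fold change 0.19, SE 0.045, adjusted p = 0.0147).

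The INSIG genes, whose products retain SCAP, did not pass with either water. Insig1, itself a target of the SREBPs, was at 155, 154 and 159.5 CPM in the Control libraries, 172, 166 and 152 CPM in the ESW libraries and 169, 174 and 169 CPM in the CW libraries. All 3 CW libraries were above all Controls, and ESW replicate 3 was below all Controls. Its log2 fold change was 0.065 in ESW (adjusted p = 0.401) and 0.13 in CW (adjusted p = 0.299). Insig2 was at 17.1 to 17.5 CPM in Control, 16.4 to 18.99 CPM in ESW and 15.9 to 19.8 CPM in CW, with all ranges overlapping and an ESW log2 fold change of 0.0075 (95% interval -0.16 to 0.18). Srebf1, which drives fatty acid synthesis, had 0.13 (adjusted p = 0.22). Srebf1 overlaps Rai1 in the annotation, whose reads came to 140% of those of Srebf1. Stard4, a cytosolic sterol carrier, had 0.078 in ESW (adjusted p = 0.545).

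On the fatty acid side, 3 of the 4 genes from acetyl-CoA to palmitate rose in ESW. Acss2, which makes cytosolic and nuclear acetyl-CoA from acetate, had the largest log2 fold change of the 34 genes, 0.31 (SE 0.056, adjusted p = 0.00271), and was at 32.5, 32.6 and 31.6 CPM in the Control libraries, 42.2, 40.5 and 36.8 CPM in the ESW libraries and 33.95, 34.9 and 32.1 CPM in the CW libraries. Every ESW library was above every other library, and CW replicate 3 was inside the Control range. Acly, which makes acetyl-CoA from citrate, was at 159, 162 and 159 CPM in the Control libraries, 182, 180.0 and 177 CPM in the ESW libraries and 172, 174 and 167 CPM in the CW libraries (ESW log2 fold change 0.17, adjusted p = 0.00814). Its 3 groups did not overlap, with CW between Control and ESW. Fasn was at 202, 193 and 215 CPM in the Control libraries, 234, 223 and 230.3 CPM in the ESW libraries and 216, 231 and 212 CPM in the CW libraries (ESW log2 fold change 0.17, adjusted p = 0.0198). Its ESW values were above all Controls, and CW replicate 3 overlapped Control. Acaca, the acetyl-CoA carboxylase that makes malonyl-CoA, had 0.081 (adjusted p = 0.299).

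Among the 6 elongases and desaturases, Scd and Fads1 rose. Scd, which puts the first double bond into stearate and palmitate, was at 99.7, 90.2 and 96.2 CPM in the Control libraries, 112, 117 and 99.5 CPM in the ESW libraries and 109, 106 and 100.5 CPM in the CW libraries (ESW log2 fold change 0.20, adjusted p = 0.0278). It was the only 1 of the 15 called genes whose ESW and Control values overlapped, by ESW replicate 3 and Control replicate 1. Fads1, a desaturase of polyunsaturated fatty acids, ranged from 249 to 270.5 CPM in Control, 277 to 284 CPM in ESW and 263 to 271 CPM in CW, with the smallest log2 fold change of the 15, 0.13 (adjusted p = 0.0429). Its neighbour in the pathway, Fads2, had 0.12 (adjusted p = 0.0621). The elongases had log2 fold changes of 0.10 for Elovl1 (adjusted p = 0.175), 0.067 for Elovl5 (adjusted p = 0.513) and -0.042 for Elovl6 (adjusted p = 0.715).

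**Figure D3:**
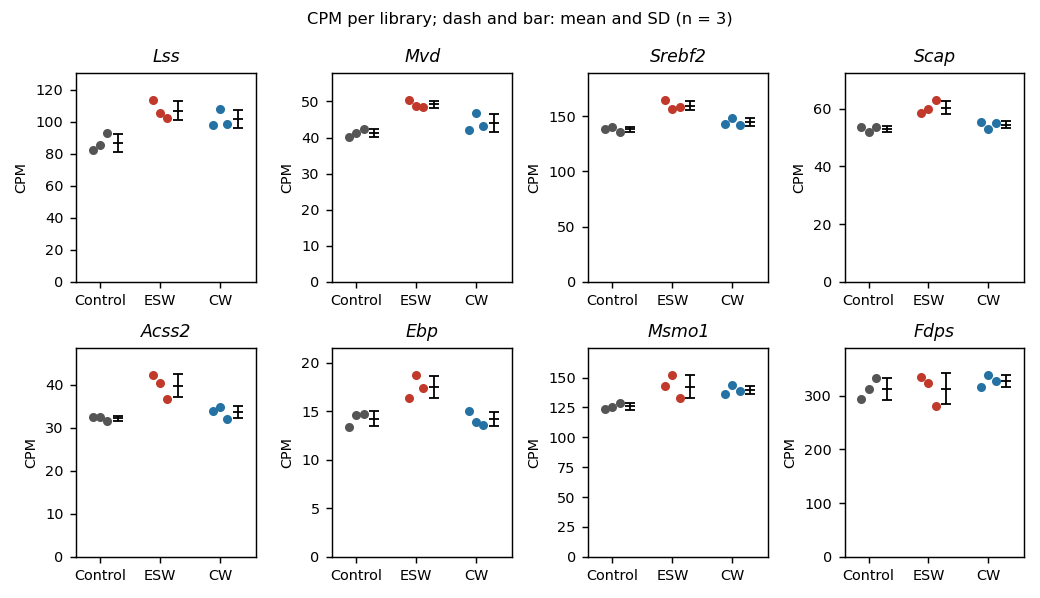
CPM per library for 8 genes (points; the dash and bar beside each group are the mean and SD, n = 3, and the axes start at 0). All water libraries of Lss and Msmo1 lie above the Controls, Ebp, Scap and Acss2 stand higher in ESW, and Fdps shows no separation.

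The SREBPs bind sterol regulatory elements in promoters, usually beside sites for NF-Y (a CCAAT box) and Sp1 (a GC box). A RefSeq table of promoters on the rat assembly GRCr8, 250 bases before to 50 after each gene's start, held 27 of the 34 genes with 28 promoters. The letters searched on both strands were TCACCCCAC, its looser form TCACNCCAC (which also matches the first), TCACGTGA, the inverted CCAAT box ATTGG and the GC box GGGCGG. The first 3 were in 0 member promoters, against 0.484%, 1.12% and 0.777% of the 33469 promoters in the table, and 0.495%, 1.18% and 1.44% of those of tested genes. ATTGG was in 75.0% of the member promoters and in 37.5% of all promoters (38.0% of those of tested genes). GGGCGG was in 78.6%, against 33.1% of all promoters and 53.0% of those of tested genes. Among members, ATTGG was in 9 of 14 called genes and 11 of 13 not called in ESW against Control, and GGGCGG in 13 of 14 and 8 of 13. A match is a description of letters and not a bound site.

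The promoters of the 4 called genes with the smallest p in ESW against Control are printed to show where these letters lie in the genes of the smallest p. They were chosen after the search for TCACCCCAC and TCACNCCAC gave no match among the members. A lack of these exact letters does not show that a sterol regulatory element is absent. Capitals mark ATTGG with its complement CCAAT and GGGCGG with its complement CCGCCC, and in Srebf2 they also mark ATCACCCCA.
Lss (GRCr8, chr20:12118181-12118480, minus strand): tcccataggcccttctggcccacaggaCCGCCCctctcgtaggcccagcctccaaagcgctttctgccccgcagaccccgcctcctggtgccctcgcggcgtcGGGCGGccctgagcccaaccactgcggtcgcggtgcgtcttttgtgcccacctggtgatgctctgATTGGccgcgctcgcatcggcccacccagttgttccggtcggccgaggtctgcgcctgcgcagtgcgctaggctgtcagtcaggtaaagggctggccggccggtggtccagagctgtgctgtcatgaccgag
Srebf2 (GRCr8, chr7:115543057-115543356, plus strand): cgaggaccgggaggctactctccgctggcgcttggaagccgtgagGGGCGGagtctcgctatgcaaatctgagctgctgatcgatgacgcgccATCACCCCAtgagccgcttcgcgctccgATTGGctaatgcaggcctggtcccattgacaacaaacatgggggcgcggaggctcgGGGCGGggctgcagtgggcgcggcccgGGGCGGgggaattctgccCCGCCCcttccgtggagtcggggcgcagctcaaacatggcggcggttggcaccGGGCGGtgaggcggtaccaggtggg
Acss2 (GRCr8, chr3:164464453-164464752, plus strand): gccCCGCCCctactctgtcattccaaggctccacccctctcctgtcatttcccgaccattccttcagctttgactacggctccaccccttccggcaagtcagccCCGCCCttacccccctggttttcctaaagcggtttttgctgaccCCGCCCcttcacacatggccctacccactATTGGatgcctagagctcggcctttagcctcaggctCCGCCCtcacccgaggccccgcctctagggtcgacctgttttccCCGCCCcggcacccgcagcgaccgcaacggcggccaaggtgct
Mvd (GRCr8, chr19:67414925-67415224, minus strand): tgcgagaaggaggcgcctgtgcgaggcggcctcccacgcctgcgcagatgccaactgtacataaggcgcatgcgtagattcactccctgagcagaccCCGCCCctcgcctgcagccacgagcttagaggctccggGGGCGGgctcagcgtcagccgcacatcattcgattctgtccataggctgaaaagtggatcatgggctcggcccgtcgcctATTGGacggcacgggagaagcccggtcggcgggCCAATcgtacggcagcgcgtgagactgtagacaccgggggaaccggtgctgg
The word ATCACCCCA, the first 9 letters of the classical sterol regulatory element, was searched after this Srebf2 sequence had been seen. It was in Srebf2 alone among the 27 genes and in 0.245% of all promoters, and in Srebf2 it lay 19 bases before an ATTGG. Lss and Mvd each held 2 GC boxes, and Srebf2 and Acss2 held 5 each.

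With CW, 0 of the 34 genes passed against Control by edgeR, beside 0.177% of all genes tested (0.0272% higher and 0.15% lower). At an unadjusted p below 0.05 there were 9 (26.5%), all higher in CW, against 9.87% of all genes tested in either direction and 4.62% higher, and DESeq2 called 1. The median log2 fold change of the 34 genes was 0.0645, against -0.000411 over all genes tested, and 28 values (82.4%) were above 0, against 49.8% over all genes. In 14 genes (41.2%) every CW library was above every Control library, against 7.13% of all genes tested. Only Idi1 (2.94%) lay wholly below Control, against 7.56% of all genes. Both waters were compared with the same 3 Control libraries, so a shift in Control would appear in both.

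For the genes that rose in ESW, the log2 fold changes of both waters stand side by side. Lss had a CW log2 fold change of 0.23 (SE 0.053, adjusted p = 0.111) beside 0.30 in ESW. Msmo1 had 0.15 beside 0.18, Acat2 0.12 beside 0.15, Dhcr7 0.15 beside 0.23, Scd 0.14 beside 0.20, Fasn 0.11 beside 0.17 and Acly 0.097 beside 0.17. In these 7 genes, those of the 15 with an unadjusted p below 0.05 in CW, the CW value was 58.7% to 84.4% of the ESW value, and the ESW minus CW interval held 0 in each. At the other end, Ebp had -0.010 in CW, Scap 0.037, Acss2 0.063, Srebf2 0.066 and Mvd 0.097. Over the 15 genes called in ESW, the CW value was a median of 56.5% of the ESW value on the log2 scale. Among those of the 15 outside the 7, the share ran from -3.3% (Ebp) to 56.5% (Cyp51). The 15 were chosen on their ESW values against the same Control libraries, and the 7 also on their CW p. These shares, and the intervals of the 7, are therefore a description only. Over all 34 genes the medians were 0.131 in ESW and 0.0645 in CW.

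Tested directly, ESW was higher than CW in 4 of the 34 genes and lower in 0, against 4.15% and 3.99% of all genes tested (8.14% in either direction). The 4 were Ebp, with a log2 difference of 0.31 (95% interval 0.15 to 0.47, adjusted p = 0.0156), Acss2 with 0.24 (0.12 to 0.36, adjusted p = 0.013), Srebf2 with 0.14 (0.063 to 0.22, adjusted p = 0.0261) and Scap with 0.15 (0.054 to 0.24, adjusted p = 0.0479). Mvd came close without passing, at 0.16 (0.051 to 0.26, adjusted p = 0.0617), and Elovl1 was at 0.14 (0.045 to 0.23, adjusted p = 0.0605). Of 19 alternatives tried, the call held in 15 for Acss2, 13 for Ebp, 12 for Srebf2 and 4 for Scap. For 10 of the 15 genes that rose in ESW, the interval of the difference between the waters held 0. For Lss it was -0.037 to 0.18, which allows a higher level in either water. The median log2 difference of the 34 genes was 0.0696 (all genes -0.00177), and in 11 genes (32.4%) every ESW library was above every CW library, against 14.9% of all genes.

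Set together against Control (the mean of the ESW and CW log2 levels), the waters were higher in 4 genes and lower in 0, beside 0.666% and 0.748% of all genes tested (1.41% in either direction). These were Lss at 0.26 (adjusted p = 0.00899), Msmo1 at 0.16 (adjusted p = 0.0439), Srebf2 at 0.14 (adjusted p = 0.0416) and Acly at 0.13 (adjusted p = 0.0414). The call of Lss held in 14 of the 18 alternatives that could be run, and those of the other 3 in 5 or 6. The median of the 34 genes was 0.0962. Srebf2 and Acly are among the genes whose CW libraries lay between Control and ESW, and this contrast does not separate a rise in 1 water from a rise in both.

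**Figure D4:**
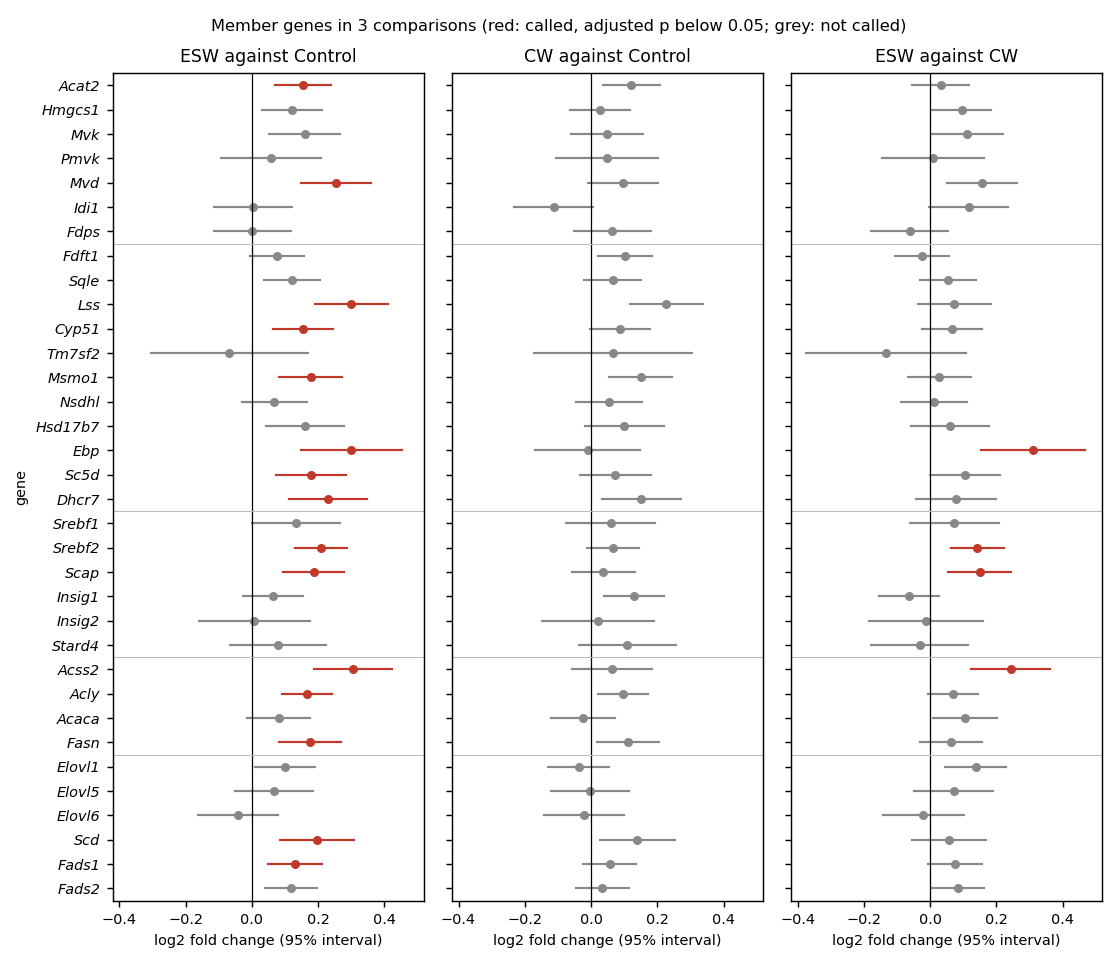
Log2 fold change with its 95% interval for each of the 34 genes in ESW against Control, CW against Control and ESW against CW (red, adjusted p below 0.05; grey, not called). The first panel has 15 red points, the second 0 and the third 4, and most points of the second panel lie right of 0.

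The libraries did not contribute alike. Summed over the 34 genes, the level was 2637 ± 30.9 TPM in Control, 2868 ± 123 TPM in ESW and 2796 ± 75.2 TPM in CW (SD, n = 3). All 6 water libraries were above the 3 Controls, and the ESW and CW values overlapped. As a share of reads, which weights long transcripts more, ESW replicate 3 (0.355%) lay inside the Control range of 0.351% to 0.3574%, and the other water libraries held 0.3663% to 0.3874%. ESW replicate 3 had the lowest of the 3 ESW values in 26 of the 34 genes (76.5%), against 31.4% of all genes tested. In CW the lowest value was in replicate 3 for 16 genes, in replicate 1 for 14 and in replicate 2 for 4.

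The calls of Lss, Mvd, Acss2 and Acly in ESW against Control held in 17 of the 19 alternatives and that of Fads1 in 7. The counts of calls depended on single libraries and on the correction for transcript length. Without Control replicate 2, 6 genes were called in ESW against Control, and without ESW replicate 1 or 2, 8 were. With offsets for each library's effective transcript lengths 5 remained, Lss, Mvd, Ebp, Acss2 and Acly, and limma on log2(TPM + 0.1) called 0, although the median of the 34 genes stayed at 0.124 and 0.133. The 4 calls of ESW against CW fell to 1 without ESW replicate 2 or 3, to 2 without CW replicate 1, to 1 without CW replicate 2 (where Mvd was called as well) and to 0 without CW replicate 3 or with limma on TPM, and the 4 of the joint contrast fell to 0 with the offsets or without Control replicate 2.

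The other genes of the pathway were 71 in 6 lists. Of the 62 that could be tested, 7 rose and 1 fell in ESW against Control (4.76% and 3.28% of all genes), with a median log2 fold change of 0.0352. Of 8 genes that supply electrons and acetyl-CoA, 3 rose. Slc25a1, the mitochondrial carrier that exports citrate to be cut by Acly, was at 54.2, 54.7 and 54.4 CPM in the Control libraries, 71.6, 69.3 and 65.9 CPM in the ESW libraries and 61.3, 60.4 and 58.98 CPM in the CW libraries (ESW log2 fold change 0.34, adjusted p = 0.000216). Its ESW libraries were above all others, and its CW libraries lay between Control and ESW (CW log2 fold change 0.14, adjusted p = 0.249). Por, which passes electrons to Cyp51 and other P450 enzymes, had 0.22 (adjusted p = 0.00446), and Cyb5r3, the cytochrome b5 reductase that serves the desaturases, had 0.17 (adjusted p = 0.0129). Of 10 other genes of elongation and desaturation, Tecr, the reductase of the elongation cycle, had 0.22 (adjusted p = 0.00208), and the desaturase Scd2 had 0.18 (adjusted p = 0.0133).

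The remaining lists held 1 call or none. Of 13 genes of sterol trafficking, storage and efflux, Npc1, which moves cholesterol out of lysosomes, rose by 0.19 (adjusted p = 0.0224). Of 12 genes of fatty acid activation and glycerolipid synthesis, Dgat2, which makes triglyceride, rose by 0.25 (adjusted p = 0.0292). Of 10 genes of SREBP processing and turnover, Erlin1 had a log2 fold change of -0.22 (adjusted p = 0.0193), the 1 fall, and 0 of 9 genes of the isoprenoid branches toward ubiquinone, dolichol and prenylation passed. Of the 19 alternatives, the calls against Control held in 18 for Slc25a1, 17 for Por and Tecr, 16 for Cyb5r3, 14 for Scd2, 13 for Npc1 and 12 for Dgat2 and Erlin1, and those of the last 4 genes were lost with the effective length offsets. In CW against Control 0 of the 62 passed, beside 0.177% of all genes tested. Against CW, ESW was higher in 4 of the 62 and lower in 0, beside 4.15% and 3.99% of all genes tested. The 4 were Slc25a1 by 0.20 (adjusted p = 0.0106), Cyb5r3 by 0.15 (adjusted p = 0.0226), Tecr by 0.14 (adjusted p = 0.0364) and Por by 0.15 (adjusted p = 0.0443). These calls against CW held in 16 for Slc25a1, 13 for Cyb5r3, 9 for Tecr and 6 for Por. Set together against Control, the waters were higher in 2 of the 62 and lower in 0 (0.666% and 0.748% of all genes). These were Slc25a1 at 0.24 (adjusted p = 0.00459) and Tecr at 0.15 (adjusted p = 0.029). Their calls held in 15 and 8 of the 18 alternatives that could be run. This contrast does not separate a rise in 1 water from a rise in both. The 9 genes too low to test were Abcg1, Nr1h3, Acss1, Elovl2, Elovl3, Elovl7, Acacb, Thrsp and Mlxipl.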

How the data were processed

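RNA of 9 libraries was sequenced and quantified per transcript with Salmon 1.10.3, per the submitters' processing notes, which also name DESeq2. The build, annotation release, bias options and use of strand are not given in the sources used here. Each deposited table gives, per the file headers, the estimated count of reads, the TPM (scaled to the same total per library), the length and the effective length (other values, in bases) of 114122 transcripts. Salmon divides reads that fit several transcripts, so the deposited estimated counts are fractional.

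All transcripts were matched by accession to symbols in a RefSeq GRCr8 gene table. Counts and TPM were summed per symbol (36856), and counts were rounded. edgeR 4.0.16 in R 4.3.3 (TMM, filterByExpr, glmQLFit, glmQLFTest) fitted 1 mean per group to all 9 libraries, with 6 residual degrees of freedom. P-values were adjusted by Benjamini-Hochberg over 14706 genes, and a gene was called below 0.05. Intervals are 95%, and log2 CPM used a prior count of 2. The scripts were tested on simulated counts. The 19 alternatives included DESeq2 1.42.0, limma 3.58.1 on log2(TPM + 0.1), other filters and scalings and leaving out each library.

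The members and lists were chosen with earlier results of these data known. By the rule for named genes every member is named, called members are given in all 9 libraries (at most 14, by p), and called genes of the other lists are named (at most 4 per list). No protein sequences were used here. In the planned rule the printed promoters were those of called members holding TCACCCCAC or TCACNCCAC, and 0 did.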

Additional observations from a re-analysis of the deposited data

How the results depend on the processing

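Directions held in every alternative for each called member, and 0 called values changed sign. In ESW against Control, 206 of the 285 values of called members over the alternatives kept an adjusted p below 0.05 and 79 did not. These numbers were 44 and 32 in ESW against CW and 31 and 41 for both waters against Control. Values of members not called moved across 0 in 13, 20 and 14 cases there, and in 24 for CW against Control. The count of 15 members became 5 with offsets for effective transcript length, 0 with limma on log2(TPM + 0.1) and 0 with limma with a mean trend, an alternative chosen after seeing the data. Leaving out 1 library gave 6 to 15. For CW against Control the count of 0 became 1, Lss, without a filter on low counts and 1 with DESeq2, and leaving out 1 library gave 0 to 1. For ESW against CW the count of 4 became 0 with limma on TPM and 0 with the mean trend, and leaving out 1 library gave 0 to 4. For both waters against Control the count of 4 became 11 without the filter, 11 with DESeq2 and 1 with a replicate block. That count was 0 with the offsets, 0 with limma on TPM and 0 with the mean trend, and leaving out 1 library gave 0 to 4. The genes tested and called change with the setting, and 24470 genes were tested without the filter. Shares of all genes called in the main fit therefore do not apply to these counts. Such shares are not given here for the other settings, so the counts of 11 are not a stronger result on the members. The causes of these changes in count were not tested. Where 2 libraries remain in a group, its spread is taken from the pooled fit.

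Deviations from the group means, over all genes tested, had correlations of -0.118 to 0.0402 between same-numbered libraries. With 3 libraries per group these weak values show no pairing by number but cannot exclude a shared day or batch. The main fit did not pair the samples. With the replicate block the counts were 14, 0, 3 and 1 in the 4 comparisons. Medians of the 34 genes in ESW against Control were 0.124 with the offsets and 0.133 with limma on TPM. With 3 libraries per group the median SE of the 34 genes was 0.0503 on the log2 scale, and the smallest difference called was 0.13.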
